A study of Mus musculus with 11 samples.

Results

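The genes described here make collagen fit for cross-linking and then cross-link it. The set holds 10 of the 54232 genes in the count table: the lysyl oxidases Lox, Loxl1, Loxl2, Loxl3 and Loxl4, the lysyl hydroxylases Plod1, Plod2 and Plod3, the prolyl 4-hydroxylase subunit P4ha1 and the collagen chaperone Serpinh1. They were found by symbol, from GENCODE M21 names for the Ensembl identifiers; the rule used no measured value, but the set was drawn up with earlier results of these data known. RNA was sequenced from 11 orthotopic pancreatic tumors of female C57BL/6 mice, 6 in PKN2 knockout hosts (KO, replicates A to F) and 5 in PKN2 wild-type hosts (WT, replicates A to E). All hosts carried Rosa26-CreERT2, which is active throughout the body, and all received tamoxifen, so that KO hosts with floxed Pkn2 alleles lost the gene systemically and not in fibroblasts alone. Each pancreas received 1000 TB32048 cells, a KPC mouse carcinoma line from a female animal, with their own Pkn2 intact. A portion of each tumor was sequenced, and in such bulk RNA a lower share of fibroblasts cannot be told apart from less RNA per fibroblast.

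Fibrillar collagens are hydroxylated on proline and lysine in the endoplasmic reticulum, fold into a triple helix with the help of chaperones, and are trimmed and assembled outside the cell. Lysyl oxidases, copper enzymes of the matrix, then oxidize lysines and hydroxylysines, which react to form the covalent cross-links that stiffen the fibers. In pancreatic cancer these enzymes are made in large part by activated stellate cells and other fibroblasts, and several of them also by carcinoma cells.

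Total counts ranged from 16294128 to 31121422 per tumor. CPM below are counts scaled to a common library total after TMM adjustment, and fold changes are log2 KO minus WT with the standard error (SE). Across all genes, WT replicates A, B and C stood apart. Their ribosomal RNA shares were 1.31% to 6.39%, against 0.241% to 0.765% for the other tumors. Expression of each gene, less its mean over all tumors, was also correlated with gene length. The Spearman rho was between -0.496 and -0.171 for these WT tumors and positive, up to 0.372, for the others. With the mean removed, a fall in some tumors pushes the rest upward, so the opposite signs are partly built in. Pkn2 was at 96.6 ± 9.34 CPM in KO (SD, n = 6) and 96.7 ± 34.6 CPM in WT tumors (SD, n = 5; edgeR adjusted p = 0.996), and with intact Pkn2 in the implanted cells this level does not check the labels. The summed fibroblast markers spanned 517 to 1179 CPM in KO and 506 to 885 CPM in WT tumors, and the carcinoma epithelial markers, of which 7 of 7 had a lower mean in KO, 2683 to 5446 CPM in KO and 3087 to 9319 CPM in WT tumors.

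To ask whether host PKN2 loss changed the cross-linking machinery of the tumor, each of the 10 genes was compared between KO and WT tumors. All 10 had the higher mean in KO tumors, by 0.10 (P4ha1) to 0.74 (Loxl4) on the log2 scale, with a median of 0.33 against -0.03 over the 16536 genes tested, of which 48.0% were higher in KO. None of the 10 passed the adjusted threshold of 0.05 with edgeR (adjusted p from 0.124 to 0.784), with DESeq2 or with limma. In the whole table edgeR called 0.0181% of genes at that threshold. At an unadjusted p under 0.05, 2 of the 10 were higher in KO (Plod1 and Loxl3) and 0 lower, beside 8.57% of all genes higher and 15.5% lower. In 0 of the 10 did the KO and WT tumors separate without overlap, as 1.59% of all genes did with KO higher.

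**Figure D1:**
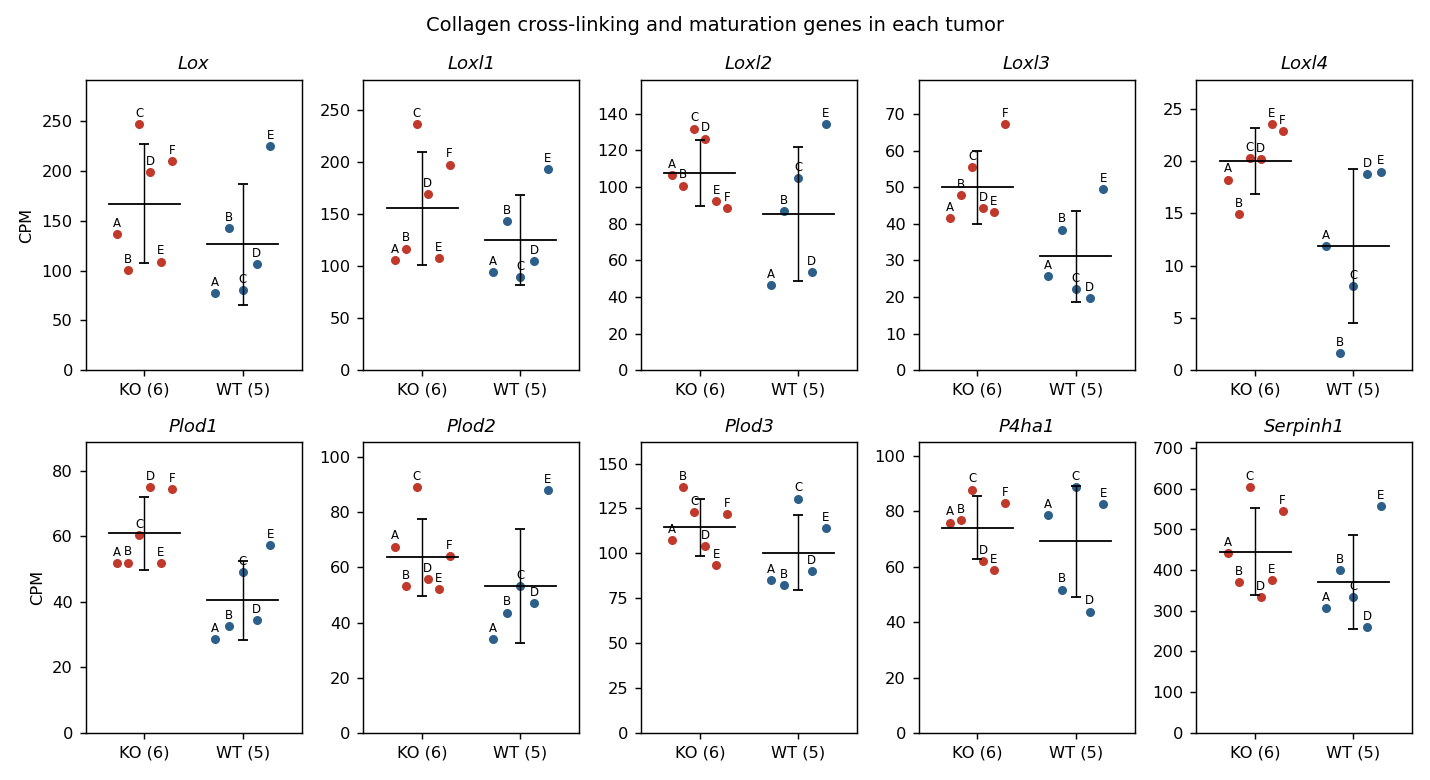
CPM of the 10 genes on linear axes starting at 0, 1 point per tumor with its replicate letter; horizontal lines are group means and error bars SD (KO n = 6, WT n = 5). WT replicate E lies within the KO range in every panel but that of Loxl2, where it is the highest tumor, and the groups overlap for all 10 genes.

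**Figure D2:**
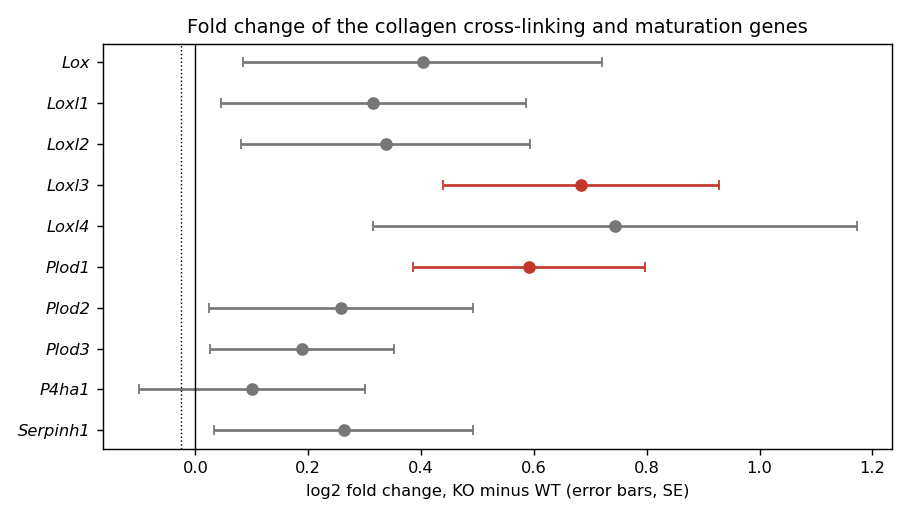
Log2 fold change of each gene, KO minus WT, with its SE; red points have an unadjusted edgeR p under 0.05 and the dotted line is the median of all genes tested (-0.03). All 10 points lie above 0, and Plod1 (0.59) and Loxl3 (0.68) are the red ones.

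WT replicate E decided how the set was called. It ranked among the 3 highest of the 11 tumors for 6 of the 10 genes, as KO replicate C did for all 10 and KO replicate F for 7, while WT replicates A and D ranked among the 3 lowest for 9 and 8. Without WT replicate E, Loxl3 rose by 0.92 (edgeR adjusted p = 0.0315) and Plod1 by 0.75 (adjusted p = 0.0364), 2 of 10 genes called beside 3.63% of all genes called higher in that fit. Its WT group was replicates A to D, most of which (A, B and C) stood apart in ribosomal RNA share and in the relation to gene length. Over all alternatives the adjusted p ran from 0.0315 to 0.416 for Loxl3 and from 0.0364 to 0.414 for Plod1. Both were then also without overlap between groups, as were 4.43% of all genes with KO higher. Lox (0.72), Loxl2 (0.57) and Plod2 (0.52) then joined them at an unadjusted p under 0.05, which makes 5 of 10 beside 13.0%. In WT replicate E the fibroblast markers summed to 885 CPM, against 506 to 711 CPM in the other WT tumors, and its ribosomal RNA share was the lowest of all 11 tumors, 0.241%. It also stood apart from the other WT tumors in markers of other cells. Pancreatic acinar markers summed to 1846 CPM (12.9 to 208 in the other WT tumors) and islet markers to 310 CPM (0.083 to 60.8). B cell markers summed to 33.3 CPM (6.59 to 12.6), and endothelial markers to 238 CPM, the highest of all 11. In KO tumors, acinar markers reached 686 CPM (replicate E), islet markers 73.5 CPM (replicate F), and B cell markers were at 36.5 to 109 CPM. The part of these in the values above was not tested. With WT replicates A, B and C left out together, in contrast, 0 of the 10 reached an unadjusted p under 0.05 and 9 of 10 remained higher in KO, with Loxl3 at 0.53 and Plod1 at 0.41. The median of the 10 was then 0.15, against 0.01 over all genes tested. Lox was at 0.02, Loxl1 at 0.07, Loxl4 at 0.09 and Plod2 at -0.08.

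Among the lysyl oxidases, Lox and Loxl1 were the most abundant. Per kilobase of exon, Loxl1 made up 39.5% ± 3.42 of the family in KO (SD, n = 6) and 42.7% ± 3.11 in WT tumors (SD, n = 5), and Lox 29.1% ± 3.42 and 28.7% ± 3.47, given without a test. Lox (ENSMUSG00000024529, GRCm38 chromosome 18, 52516067 to 52529867, minus strand) encodes the founding enzyme of the family. It stood at 77.2, 142, 80.5, 106 and 225 CPM in WT replicates A to E, and at 101, 168 and 247 CPM as the lowest, median and highest KO tumor. Only WT replicates A and C fell below every KO tumor, and WT replicate E exceeded all but KO replicate C. The difference of 0.40 ± 0.32 (SE) was within the spread between tumors (edgeR adjusted p = 0.448), and it was 0.25 without KO replicate C and 0.02 without WT replicates A, B and C.

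Loxl1 (ENSMUSG00000032334, chromosome 9, 58287738 to 58313186, minus strand), known for its part in elastic fibers, was at 94.4, 144, 89.8, 105 and 193 CPM in WT replicates A to E and at 106, 143 and 237 CPM as the lowest, median and highest KO tumor. WT replicates A, C and D lay just under the lowest KO tumor. Its fold change was 0.32 ± 0.27 (edgeR adjusted p = 0.488). It was 0.15 without KO replicate C, 0.53 without WT replicate E and 0.07 without WT replicates A, B and C.

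Lox and Loxl1 followed each other from tumor to tumor. Over the 11 tumors their log2 CPM correlated with Pearson r = 0.956 (permutation p = 1e-05, the smallest that 100000 shuffles can give) and Spearman rho = 0.918 (permutation p = 0.0002). Adjusted over the 55 relations computed among the 10 genes and type I collagen, these p were 0.00055 and 0.0099. The r was 0.946 without KO replicate C and WT replicate A, the tumors farthest from the median Lox level, 0.930 within the 6 KO tumors, and 0.947 without WT replicates A, B and C; the 5 WT tumors were too few for a value of their own. Both genes were read from the same libraries.

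**Figure D3:**
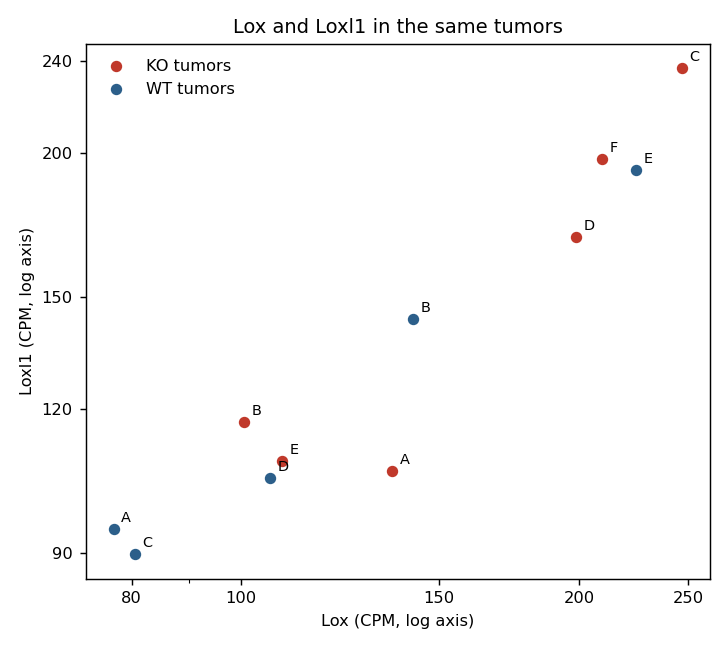
Lox against Loxl1 in the same tumors, CPM on log axes, 1 point per tumor with its replicate letter. KO replicates C, D and F and WT replicate E form the upper end, and WT replicates A and C the lower end.

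Loxl2 (ENSMUSG00000034205, chromosome 14, 69609068 to 69695834, plus strand), an oxidase of collagen IV and other matrix proteins, spread more in WT than in KO tumors. Its SD was 42.9% of the mean in WT and 16.6% in KO tumors. Every other gene of the set also had the larger percentage in WT, though Loxl1 only barely (34.84% against 34.83%). Loxl2 was at 46.4, 86.9, 105, 53.3 and 134 CPM in WT replicates A to E, and at 88.3, 104 and 132 CPM as the lowest, median and highest KO tumor. WT replicates A and D were far below all KO tumors and WT replicate B just below, and WT replicate E was the highest of the 11. The fold change was 0.34 ± 0.26 (edgeR adjusted p = 0.430), 0.18 without WT replicate A and 0.21 without WT replicate D.

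Loxl3 (ENSMUSG00000000693, chromosome 6, 83034173 to 83052562, plus strand), a less abundant lysyl oxidase required for palate and spine cartilage in mice, had the clearer separation. WT replicates A to E gave 25.7, 38.4, 22.2, 19.7 and 49.4 CPM, and the lowest, median and highest KO tumor gave 41.5, 46.1 and 67.3 CPM. All WT tumors but replicate E lay below all KO tumors, and KO replicates C and F lay above WT replicate E. The fold change was 0.68 ± 0.24, with an unadjusted edgeR p of 0.0153 and an adjusted p of 0.129. In a fit that also held the share of ribosomal RNA it was 0.74, with an adjusted p of 0.337. Of the exonic bases of Loxl3, 535 overlap Htra2 on the opposite strand, as 529 of Plod3 overlap Znhit1; the library kit and alignment kept strand.

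Loxl4 (ENSMUSG00000025185, chromosome 19, 42593982 to 42612813, minus strand) had the largest fold change of the set, 0.74 ± 0.43, and the largest error (edgeR adjusted p = 0.30). WT replicates A to E gave 11.9, 1.67, 8.06, 18.8 and 19.0 CPM and the lowest, median and highest KO tumor 15.0, 20.2 and 23.6 CPM. WT replicates D and E lay within the KO range, and the difference rested on WT replicates A, B and C, with WT replicate B at 20 counts. The fold change was 0.47 without WT replicate B, 0.25 in the fit that held the ribosomal RNA share and 0.09 without WT replicates A, B and C. WT replicate B was also low in the carcinoma epithelial markers (3087 CPM summed, the lowest WT value). KO replicate F was lower still in these markers, at 2683 CPM, with Loxl4 at 22.8 CPM. WT replicate A had the highest sum, 9319 CPM, with Loxl4 at 11.9 CPM. Whether carcinoma content bears on Loxl4 was not tested.

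The lysyl hydroxylases act earlier, inside the cell, and decide which lysines can later form the more stable cross-links. Plod1 (ENSMUSG00000019055, chromosome 4, 147909753 to 147936767, minus strand) hydroxylates lysines within the triple helix, and it had the smallest p of the 10 genes. It was at 28.7, 32.6, 49.0, 34.5 and 57.3 CPM in WT replicates A to E and at 51.8, 56.2 and 75.2 CPM as the lowest, median and highest KO tumor. Again all WT tumors but replicate E lay below all KO tumors. The fold change was 0.59 ± 0.21, with an unadjusted edgeR p of 0.0129 and an adjusted p of 0.124; 10.4% of all genes tested had a smaller p. In the fit that held the ribosomal RNA share it was 0.49, with an adjusted p of 0.414.

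Plod2 (ENSMUSG00000032374, chromosome 9, 92542223 to 92608428, plus strand) hydroxylates the telopeptide lysines that give the pyridinoline cross-links of stiff tissue. It was at 34.0, 43.6, 53.1, 47.2 and 88.0 CPM in WT replicates A to E and at 52.0, 59.9 and 89.3 CPM as the lowest, median and highest KO tumor. WT replicate E lay just under the highest KO tumor, KO replicate C, and WT replicate C at the low end of the KO range. The fold change was 0.26 ± 0.23 (edgeR adjusted p = 0.512), 0.13 without either KO replicate C or WT replicate A, and turned to -0.08 without WT replicates A, B and C.

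Plod3 (ENSMUSG00000004846, chromosome 5, 136987019 to 136996648, plus strand), which also glycosylates hydroxylysine, varied least over the 11 tumors, with a highest value 1.67 times the lowest. It was at 85.2, 82.1, 130, 90.2 and 114 CPM in WT replicates A to E and at 93.2, 115 and 137 CPM as the lowest, median and highest KO tumor. WT replicate C was second only to KO replicate B. It differed by 0.19 ± 0.16 (edgeR adjusted p = 0.492), 0.12 without WT replicate B and 0.30 without WT replicate C.

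Per kilobase of exon, Plod1 made up 19.6% ± 3.46 (SD, n = 6) of the lysyl hydroxylase message in KO and 15.5% ± 0.925 (SD, n = 5) in WT tumors, and the highest WT tumor, at 16.9%, lay above the lowest KO tumor. Plod3 made up 54.9% ± 4.31 in KO and 59.0% ± 5.35 in WT tumors, and Plod2 25.5% in both. These shares are given without a test.

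P4ha1 (ENSMUSG00000019916, chromosome 10, 59323296 to 59373304, plus strand) encodes a catalytic subunit of prolyl 4-hydroxylase, on which the thermal stability of the triple helix depends. It differed least of the 10. WT replicates A to E gave 78.8, 51.7, 88.9, 43.8 and 82.5 CPM, and the lowest, median and highest KO tumor 58.9, 76.5 and 87.8 CPM. WT replicate C exceeded every KO tumor and WT replicates B and D lay below every KO tumor. The fold change was 0.10 ± 0.20 (edgeR adjusted p = 0.784), up to 0.21 when single tumors were left out, and -0.02 without WT replicate D or in the fit that held the ribosomal RNA share.

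Serpinh1 (ENSMUSG00000070436, chromosome 7, 99345376 to 99353239, minus strand) encodes the chaperone that binds folded procollagen on its way out of the endoplasmic reticulum. It was at 307, 400.2, 333, 259 and 556 CPM in WT replicates A to E and at 334, 409 and 605 CPM as the lowest, median and highest KO tumor. WT replicates A, C and D lay below all KO tumors, WT replicate C by the least. The fold change was 0.26 ± 0.23 (edgeR adjusted p = 0.496), 0.15 without KO replicate C, 0.16 without WT replicate D and 0.46 without WT replicate E.

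P4ha1 and Plod2 are, with Lox, textbook genes of the hypoxia response. The upstream sequences of the genes at either end of the comparison, Plod1 with the smallest p and P4ha1 with the largest, are shown to set that background beside the values. They are the 250 bases before the RefSeq start (GRCm38.p6), 5′ to 3′ on the gene's strand, chr4:147936777-147937026 (minus strand) for Plod1 and chr10:59323046-59323295 (plus strand) for P4ha1. Capitals mark the letters ACGTG or GCGTG, the core of hypoxia-response elements, or their reverse complements CACGT and CACGC.
Plod1: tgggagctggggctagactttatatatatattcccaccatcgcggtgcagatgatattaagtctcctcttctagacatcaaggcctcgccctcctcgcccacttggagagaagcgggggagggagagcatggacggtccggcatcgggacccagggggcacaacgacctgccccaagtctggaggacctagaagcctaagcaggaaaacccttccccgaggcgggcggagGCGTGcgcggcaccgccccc
P4ha1: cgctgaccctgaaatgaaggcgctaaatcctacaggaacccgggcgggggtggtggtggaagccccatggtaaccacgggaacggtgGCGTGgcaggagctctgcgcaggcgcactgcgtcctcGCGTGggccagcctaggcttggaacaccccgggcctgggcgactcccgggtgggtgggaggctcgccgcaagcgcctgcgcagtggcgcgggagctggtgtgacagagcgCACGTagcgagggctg
P4ha1 held 3 matches, which began 163, 126 and 16 bases before the start, and Plod1 held 1, which began 20 bases before it. Upstream sequences were at hand for 5 of the 10 genes (Loxl4, Plod1, Plod3, P4ha1 and Serpinh1), and all 5 held at least 1 match, as did 38.8% of 32536 upstream sequences of the same length. Of the 5, Plod3 held the most, 4 matches, and Loxl4 and Serpinh1 held 1 each. A match describes these letters and is no evidence of binding.

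Levels of different genes can be compared only per length. As CPM per kilobase of merged exons (RPKM, mean ± SD over the 11 tumors), Serpinh1 stood far above the rest at 168 ± 46.0, followed by Loxl1 at 43.0 ± 15.1, Lox at 31.1 ± 12.8 and Plod3 at 23.9 ± 4.16. Serpinh1 exceeded Loxl1, and Loxl1 exceeded Lox, in all 11 tumors. Loxl2 at 18.0 ± 5.33 and P4ha1 at 17.5 ± 3.71 could not be ordered, with Loxl2 the higher in 6 of 11 tumors. Plod2 at 10.9 ± 3.20, Loxl3 at 8.99 ± 3.13 and Plod1 at 7.63 ± 2.27 were close to each other, Plod2 exceeding Loxl3 and Loxl3 exceeding Plod1 in 8 of 11 tumors each. Loxl4 came last, at 3.87 ± 1.59 RPKM, below Plod1 in all 11 tumors. The order depends on the exons counted: with the length of the longest transcript instead, Plod3 (32.9) stood above Lox (31.3), and Plod2 and Plod1 rose to 16.1 and 12.6 RPKM.

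To test whether the genes changed relative to type I collagen, each was divided by it (the mean of log2 Col1a1 and log2 Col1a2) in the same tumor. Col1a1 itself was 0.41 ± 0.38 (edgeR adjusted p = 0.521) and Col1a2 0.33 ± 0.35 (adjusted p = 0.587) on the log2 scale. The differences in log2 ratio ran from -0.36 for P4ha1 to 0.64 for Loxl4, and 0 of the 10 reached p under 0.05 (exact two-sided permutation tests over all 462 regroupings, p from 0.359 to 0.833, not adjusted; the smallest p possible is 0.00216). Loxl3 differed by 0.25 (exact p = 0.366) and Plod1 by 0.12 (exact p = 0.613). With 5 fibrillar collagens as the denominator these became -0.01 and -0.13. Of the 10 ratios, 7 were on average lower in KO tumors, although all 10 genes were on average higher.

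**Figure D4:**
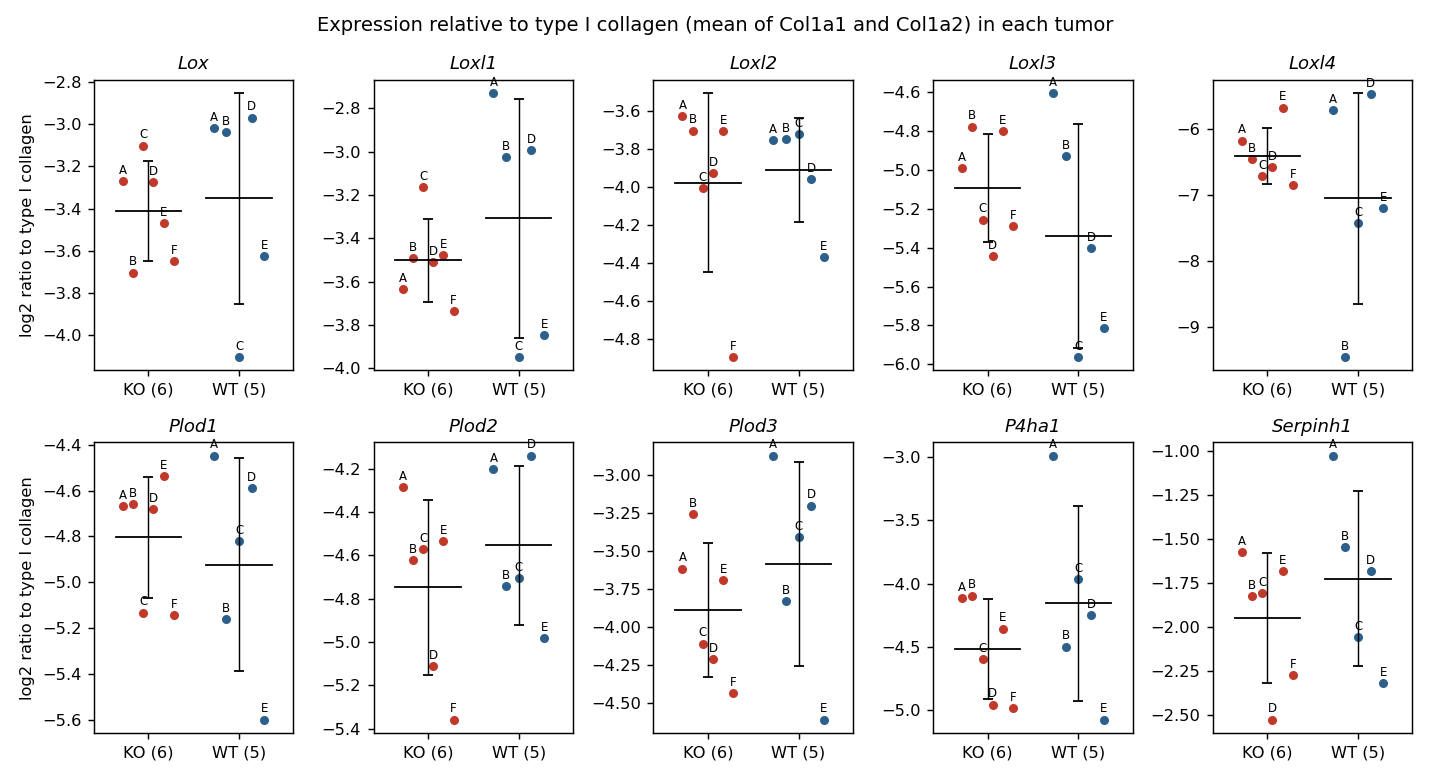
Log2 ratio of each gene to type I collagen, 1 point per tumor with its replicate letter; horizontal lines are group means and error bars SD (KO n = 6, WT n = 5). KO and WT tumors overlap in all 10 panels. Loxl4 in WT replicate B (-9.45) and Loxl2 in KO replicate F (-4.90) are the lowest of their groups. Only the Loxl2 value stood out in the check for tumors far from the rest of their group.

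Over the 11 tumors the log2 CPM of Plod1 rose with type I collagen, with r = 0.864 (permutation p = 0.00073, adjusted over 55 relations 0.0154) and rho = 0.827 (permutation p = 0.00261, adjusted 0.0205). The r was 0.826 without WT replicates A and B, the tumors farthest from the median Plod1 level, 0.873 within the 6 KO tumors and 0.822 without WT replicates A, B and C. Loxl4 showed no such relation that this number of tumors could resolve (r = 0.301, permutation p = 0.380, adjusted 0.464; rho = 0.473, p = 0.144, adjusted 0.188; r = 0.629 without WT replicates B and C, 0.395 within the 6 KO tumors). Of the 10 relations with type I collagen, 7 had an adjusted p of r under 0.05, all but those of Loxl4, P4ha1 and Plod3. Not all of the 7 were as high within the 6 KO tumors, where the r of Plod2 went from 0.850 to 0.496. That of Loxl2 went from 0.826 to 0.196 there, and to 0.530 without WT replicates A and D. KO replicate F had the highest Col1a1 of the KO tumors (2623 CPM) but the lowest Loxl2 (88.3 CPM). In KO replicates A to E, Loxl2 (106, 101, 132, 126 and 92.2 CPM) largely followed Col1a1 (1277, 1299, 2106, 1899 and 1157 CPM). For Loxl1 the r of 0.816 was 0.92 within the KO tumors, but its rho of 0.691 had an adjusted p of 0.0529.

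The genes whose log2 CPM tracked the set most closely were sought among 11975 genes with a mean of at least 5 CPM, as a description over the same 11 libraries. For Plod1 they were Lbh (r = 0.97), Tacc1 (0.95) and Col6a2 (0.95), and for Loxl3 Adgra2 (0.93), Pde7b (0.92) and Thbs2 (0.91), with Col6a2 and Thbs2 matrix genes. For Loxl2 they were Fbln2 (0.96), Bmp1 (0.90) and Cdh2 (0.90), the last with r = 0.35 within the 6 KO tumors. For Loxl4 they were Cstf2 (0.99), Celsr1 (0.97) and Unc119b (0.97), and within the KO tumors these fell to 0.70, 0.66 and 0.35.

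The same comparison was made for the steps around the 10 genes, in lists written with results of these data already known. For the steps inside the cell the medians were close to 0. Of 11 partner hydroxylases and galactosyltransferases, 6 had a higher and 5 a lower mean in KO, with a median log2 fold change of 0.04. P3h1, which hydroxylates single prolines of the chain, was at 0.49 ± 0.20 (edgeR unadjusted p = 0.0264, adjusted p = 0.158), P4ha3 at 0.53 ± 0.25 and the cyclophilin Ppib at -0.42 ± 0.23. Of 10 genes of collagen folding and export, 7 had a higher mean and the median was 0.09. Sec24d, a coat protein of the vesicles that carry procollagen, was at 0.55 ± 0.23 (unadjusted p = 0.0354, adjusted p = 0.179), Sec23a at 0.38 ± 0.18 and Mia3, a procollagen export receptor, at 0.22 ± 0.16. Without WT replicates A, B and C, P3h1 was at 0.16, Sec24d at 0.12 and Ppib at 0.02.

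Outside the cell the means lay further apart. Of 12 tested genes of procollagen processing and cross-linking partners, 11 had a higher mean in KO and the median was 0.50; Tll2, a further member of that list, was too low to be tested. The procollagen C-proteinases Tll1 (1.95 ± 0.52, adjusted p = 0.0909) and Bmp1 (0.64 ± 0.25, adjusted p = 0.156) and fibronectin, Fn1 (0.77 ± 0.35, adjusted p = 0.198), had an unadjusted edgeR p under 0.05. Tll1 was the only gene of these lists under an adjusted p of 0.1, as were 1.96% of all genes with KO higher, and at 6.10 ± 3.68 CPM in KO (SD, n = 6) and 1.57 ± 1.07 CPM in WT (SD, n = 5) its level was low. All 8 collagen substrates had a higher mean in KO, with a median of 0.68. Among them Col5a2 (0.72 ± 0.32) had an unadjusted p of 0.0443, while Col5a1 (0.87 ± 0.40) and Col3a1 (0.78 ± 0.38) had a larger one. Without WT replicates A, B and C, the median of the processing list was 0.24 and that of the collagens -0.04, with 3 of 8 collagens higher.

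Of 7 elastic fiber genes, 6 had a higher mean and the median was 0.60. Elastin, Eln, the other main substrate of the lysyl oxidases, was at 211 ± 186 CPM in KO (SD, n = 6) and 49.4 ± 44.7 CPM in WT tumors (SD, n = 5). KO replicate C alone was at 584 CPM, and the other KO tumors at 97.0 to 176 CPM. It differed by 2.09 ± 0.63 (edgeR unadjusted p = 0.00573, adjusted p = 0.103), and 1.45 ± 0.51 without KO replicate C (adjusted p = 0.173). Emilin1 (0.75 ± 0.28) had an unadjusted p of 0.0185, and Ltbp4 was at 0.70 ± 0.34. Without WT replicates A, B and C the median of the list was 0.24.

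The direction of the hypoxia list rested on WT replicates A, B and C, as did that of Atox1 in the copper list. Of 12 hypoxia-inducible genes outside the set, 10 had a lower mean in KO and the median was -0.24, with Ankrd37 at -1.06 ± 0.47 (unadjusted p = 0.0407), Car9 at -1.23 ± 0.64 and Bnip3 at -0.84 ± 0.44. Without WT replicates A, B and C, 11 of the 12 were higher in KO, the median turned to 0.49, and these genes were at 0.74, 0.89 and 0.96. Bnip3, for example, was at 194, 112 and 113 CPM in WT replicates A, B and C, at 17.0 and 37.8 CPM in WT replicates D and E, and at 48.4 to 55.6 CPM in the KO tumors. Of the copper supply, the Golgi copper pump Atp7a was at 1.04 ± 0.41 (unadjusted p = 0.0248), the copper chaperone Atox1 at -0.85 ± 0.35 (unadjusted p = 0.0326) and the importer Slc31a1 at 0.31 ± 0.19. Atp7a was at 3.12 to 5.55 CPM in WT replicates A, B and C, but at 16.6 and 14.5 CPM in WT replicates D and E, within the KO range. Atox1 was at 142 to 319.7 CPM in these 3 tumors, but at 66.0 and 67.6 CPM in WT replicates D and E, below every KO tumor (71.7 to 106 CPM). Without WT replicates A, B and C, Atp7a was at 0.21 and Atox1 turned to 0.37. The median of the copper list went from 0.31 to 0.21 and kept its direction.

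No gene of these 7 lists passed the adjusted threshold in edgeR, and 9 had an unadjusted p under 0.05 with KO higher and 2 with KO lower, of 63 tested, beside 8.57% and 15.5% of all genes. DESeq2 called Tll1 and Eln, 2 genes beside 3.21% of all genes called higher by that tool. Without WT replicate E, edgeR called 12 genes of the lists, namely P3h1, Sec24d, Bmp1, Tll1, Adamts2, Col3a1, Col5a1, Col5a2, Col4a1, Col4a2, Eln and Emilin1, all higher in KO, beside the 3.63% of all genes called higher in that fit. There too, WT replicates A, B and C made up most of the WT group.

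**Figure D5:**
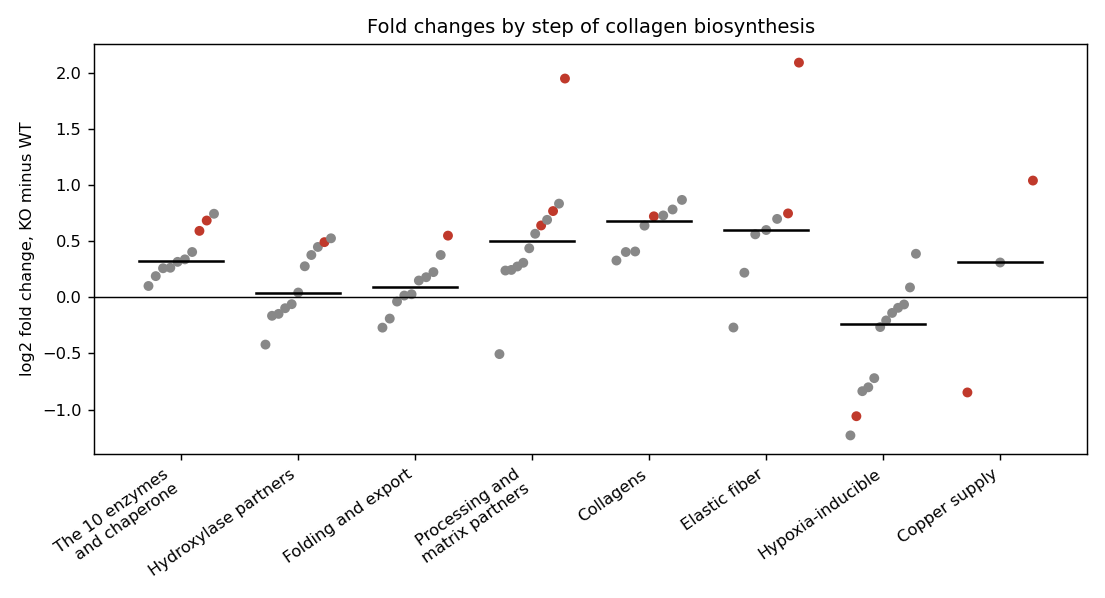
Log2 fold change, KO minus WT, of the 10 genes and of the tested genes of 7 lists around them, 1 point per gene, ordered within each column; red points have an unadjusted edgeR p under 0.05 and lines are medians. The medians run from -0.24 (hypoxia-inducible genes) to 0.68 (collagens), with 0.33 for the 10 genes.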

How the data were processed

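The authors extracted total RNA from tumor pieces, made strand-specific libraries (NEB Next Ultra II Directional) and sequenced them on an Illumina NovaSeq. Per the labels and the study's methods, reads went through Trimmomatic, were aligned by HISAT2 2.1.0 to GRCm38 (mm10), and uniquely aligned reads counted over exons with HTSeq 0.11.2. The deposited raw counts, whole numbers per gene, were the basis of all tests. The deposited normalised values, a signal equal to the count divided by a single factor per sample, entered only an alternative.

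Of 54232 Ensembl identifiers, 54165 matched a symbol in GENCODE M21. Counts were tested with edgeR 4.0.16 (R 4.3.3; TMM, filterByExpr, quasi-likelihood F-test, Benjamini-Hochberg over 16536 genes, adjusted p threshold 0.05, no covariate). SE is the log2 fold change divided by the root of F. Alternatives used DESeq2 1.42.0 and limma 3.58.1. The exact permutation tests of the collagen ratios ran in R, and the permutation tests of the correlations used scipy 1.17.1 and numpy 2.4.6. The edgeR, DESeq2 and limma fits and the correlation test were checked on simulated data. The exact permutation tests of the collagen ratios were not. All 55 pairs of libraries differed beyond counting noise (chi-square over genes at least 25.4 times its degrees of freedom). At these depths, 3 counts correspond to 0.0887 to 0.250 CPM.

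Groups and letters came from the titles, which name 1 tumor per sample, and p-values measure the spread between these tumors. The 10 genes and all lists were chosen with earlier results of these data known. Named beside the 10 were the 3 genes of each list with the smallest p, Col1a1 and Col1a2, and for the 4 genes with the smallest p the 3 most correlated genes; lists called without WT replicate E were named after their values were seen, and the correlations and the shares within enzyme families were added after the data were seen. The upstream sequences are from RefSeq, trimmed to the bases before the start. Age, sequencing batch and tumor size were not used here.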

Additional observations from a re-analysis of the deposited data

Results flagged for a closer look

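Of 40 sets of values examined for a tumor far from the rest of its group (the CPM and the collagen ratio of each of the 10 genes, in KO and in WT), 1 stood out, where chance gives about 2. The log2 ratio of Loxl2 to type I collagen was -4.90 in KO replicate F, against -4.01 to -3.63 in the other 5 KO tumors.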

How the results depend on the processing

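The count of the 10 genes called stayed at 0 under every alternative that kept WT replicate E, and ranged from 0 to 2 when each tumor was left out in turn; the counts at an unadjusted p under 0.05 then ranged from 2 to 5 and those without overlap from 0 to 2. Without WT replicates A, B and C together, 0 reached an unadjusted p under 0.05. Genes called higher and lower in KO, 3 and 0 in the report, were 595 and 900 with DESeq2, 13 and 1 with library totals, 39 and 6 without a filter on low counts, 40 and 6 with limma on the deposited normalised values, and 68 and 28 with an offset for gene length. With at least 10 counts in every tumor 0 were higher, 1 was lower with the ribosomal RNA covariate, and 3 were lower without WT replicates A, B and C. When each tumor was left out in turn the ranges were 0 to 608 higher and 0 to 1248 lower. Genes of the surrounding lists called, 0 in the report, were 2 with DESeq2 and 0 to 12 when each tumor was left out. With the replicate block, genes called were 7 higher and 1 lower and 0 of the 10; same-lettered KO and WT tumors did not deviate together (r from -0.135 to 0.118), so the letters were taken as names only. Library totals without TMM moved the median log2 fold change of all genes from -0.03 to 0.11 and that of the 10 genes from 0.33 to 0.45. P4ha1 turned to -0.018 with the ribosomal RNA covariate and ranged from -0.024 to 0.21 when each tumor was left out, and Plod2 turned to -0.081 without WT replicates A, B and C. Differences in collagen ratio, none past a threshold, changed sign with 5 collagens as denominator for Loxl3 (-0.0067) and Plod1 (-0.13), without WT replicates A, B and C for Loxl2 (0.19), Loxl4 (-0.077), Plod3 (0.019), P4ha1 (0.14) and Serpinh1 (0.052), and on leaving out single tumors for Lox (-0.25 to 0.035), Loxl2 (-0.18 to 0.12) and Plod1 (-0.049 to 0.24). The causes were not tested. Leaving out WT replicates A, B and C left 2 WT tumors, so a missed threshold there says little.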
